A study of Mus musculus with 6 samples.

Results

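Amphiregulin (Areg) and 9 further genes of the epidermal growth factor (EGF) receptor system were followed in mouse lung with and without Zpbp2. The 10 genes were chosen by symbol from the count matrix, with the values of the KO and WT libraries already in view: the ligands Areg, Ereg, Hbegf, Tgfa, Btc, Egf and Nrg1 and the receptors Egfr, Erbb2 and Erbb3. They are 10 of the 47069 genes counted and 10 of the 17037 genes with enough reads to be tested. Because the choice used the difference between genotypes, that difference is described here for the 10 genes, mouse by mouse, with no p-value for any one of them, and counts of those that passed the test over all genes are a description too.

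Lungs had been collected at ZT10, that is 10 hours after lights-on in a cycle of 12 hours of light and 12 hours of darkness, from 3 wild type C57BL/6J mice (WT4 to WT6) and 3 mice lacking Zpbp2 (KO4 to KO6), with 1 poly(A) RNA library per mouse. The KO mice were of the strain B6.129S7-Zpbp2tmZuk/Mmjax. Their allele, Zpbp2tmZuk, removes exons 1 to 3 of Zpbp2 in every cell and was kept on the C57BL/6J background in the same colony as the WT mice. It takes regulatory sequence at the start of Zpbp2 with it, so that loss of the protein and loss of regulatory sequence cannot be told apart. The mice were adults, with no exact age or sex in the labels. Xist, the RNA of the inactive X chromosome, reached 715 to 994 counts per 1000000 (CPM) in all 6 libraries, while 4 genes of the Y chromosome had at most 9 counts each. Libraries held 19981428 to 46796908 counts, and 3 counts, taken as the floor of detection, correspond to 0.0629 to 0.148 CPM. Values below run in the order of mice 4, 5 and 6, and WT comes first. For Zpbp2 (ENSMUSG00000017195) the WT libraries held 1, 2 and 2 counts and each KO library 0, so at this depth the deleted gene lay at or under the floor in both genotypes. Marker genes of airway and alveolar epithelium, taken as sums, were abundant in every library, and the sums are given at the end.

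EGF ligands are made as membrane-bound precursors, cut free by ADAM metalloproteases, and bound by receptor tyrosine kinases that signal as pairs. Egfr binds Areg, Ereg, Hbegf, Tgfa, Btc and Egf, whereas Erbb3 binds neuregulins such as Nrg1, and Erbb2 has no known soluble ligand and acts as the partner of the others. In lung the system is known for epithelial repair, branching and mucus cell responses, and Areg in addition for its release by mast cells, innate lymphoid cells and regulatory T cells in type 2 inflammation.

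Areg (ENSMUSG00000029378) lies on the plus strand of chromosome 5 at 91139599 to 91148432 (GRCm38), in a row with other EGF ligands. Epgn ends 39.4 kb before Ereg, Ereg ends 46.0 kb before Areg, and Btc, on the minus strand, begins 209 kb beyond it. Tgfa lies on chromosome 6, Egf on chromosome 3, Nrg1 on chromosome 8, Erbb3 on chromosome 10 and both Egfr and Erbb2 on chromosome 11. Erbb2 is a neighbour of the deleted gene, with 113 kb and the protein-coding genes Grb7 and Ikzf3 between them. The RefSeq promoter table for GRCm38.p6 matched 6 of the 10 genes by symbol. The 250 bases before the start are shown for Areg, Tgfa and Egfr, the 3 of the 10 that were lower in KO at an adjusted p of 0.05 in the fit over all genes, with the letters of searched motifs in capitals. The windows are chr5:91139349-91139598, chr6:86194972-86195221 and chr11:16751953-16752202, all on the plus strand.
Areg: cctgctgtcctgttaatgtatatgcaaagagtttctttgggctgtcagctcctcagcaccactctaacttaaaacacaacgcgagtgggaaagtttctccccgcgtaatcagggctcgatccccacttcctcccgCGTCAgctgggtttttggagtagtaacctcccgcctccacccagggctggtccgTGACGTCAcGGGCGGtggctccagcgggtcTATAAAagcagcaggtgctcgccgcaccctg
Tgfa: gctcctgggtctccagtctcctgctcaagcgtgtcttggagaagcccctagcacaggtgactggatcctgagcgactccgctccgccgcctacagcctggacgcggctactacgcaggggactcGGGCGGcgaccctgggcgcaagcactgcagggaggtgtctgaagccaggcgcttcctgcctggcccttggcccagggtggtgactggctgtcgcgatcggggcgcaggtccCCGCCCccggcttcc
Egfr: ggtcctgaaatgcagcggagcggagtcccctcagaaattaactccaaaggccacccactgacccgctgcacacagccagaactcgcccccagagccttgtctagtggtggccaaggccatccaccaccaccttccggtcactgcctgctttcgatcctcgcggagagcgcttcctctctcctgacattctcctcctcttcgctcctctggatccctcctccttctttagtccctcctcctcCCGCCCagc
The Areg window held the full cyclic AMP response element TGACGTCA 61 to 54 bases before the start, a GC box (GGGCGG, or CCGCCC on the other strand) 52 to 47 bases before it and a TATA box (TATAAA) 31 to 26 bases before it. Among all 32851 promoter windows of the table, searched on both strands, 1.55% held the full element, 32.7% the GC box and 12.4% the TATA box. A further CGTCA in Areg is the shorter core of the element (TGACG read on the other strand), which 17.8% of windows held and which also occurs, overlapping, inside each full element. The windows of Tgfa and Egfr held GC boxes only. None of the 6 matched genes held the AP-1 motif TGANTCA (6.75% of windows) or the E-box CACGTG (6.02%), and Areg alone of the 6 held the full response element. These are matches of letters and not evidence of binding.

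In the WT lungs 136, 124 and 334 reads were counted for Areg, and in the KO lungs 56, 87 and 49. After TMM scaling, which adjusts the library sizes to each other, its level was 5.47, 5.94 and 10.8 CPM in the WT lungs and 2.74, 1.83 and 2.42 CPM in the KO lungs. Every KO value lay below every WT value, and WT6 stood well above the other WT mice. The KO mean of 2.33 ± 0.463 CPM (SD, n = 3) was 31.4% of the WT mean of 7.41 ± 2.95 CPM (SD, n = 3), and the fitted log2 fold change (KO minus WT) was -1.69 with a standard error of 0.31. Without WT6 the fitted log2 fold change was -1.31, the smallest of the 6 fits on 5 mice, and without WT4 it was -1.87, the largest. WT4 and WT5 alone still lay above the highest KO mouse.

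**Figure D1:**
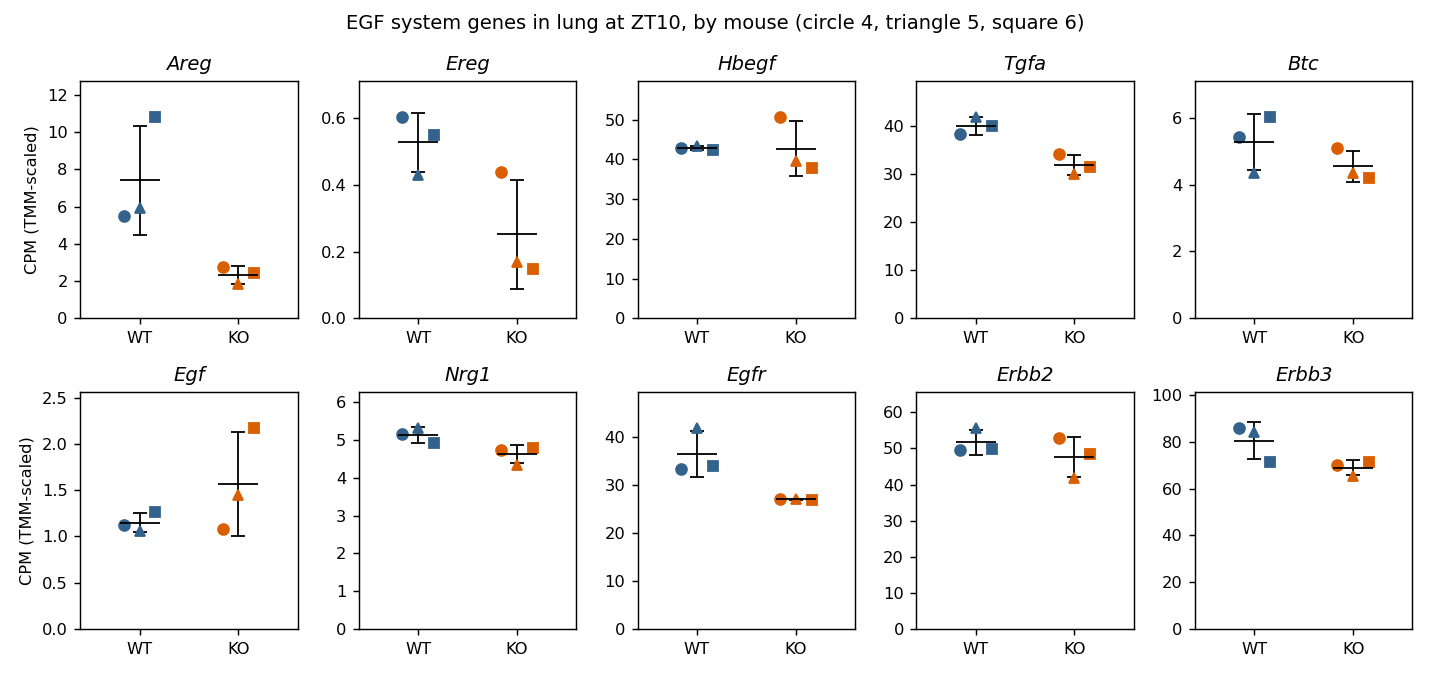
Level of each of the 10 genes in CPM (y axis, from 0, a separate scale per gene) in 3 WT (blue) and 3 KO (orange) lungs. Each point is 1 mouse, horizontal lines are means and bars are SD. KO and WT points are separate for Areg, Tgfa, Nrg1, Egfr and Erbb3, where the KO values are the lower ones, and overlap for the other 5 genes.

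Ereg, the epiregulin gene next to Areg, was close to the limit of detection, with 15, 9 and 17 reads counted in WT and 9, 8 and 3 in KO. These correspond to 0.604, 0.431 and 0.550 CPM in WT and 0.440, 0.168 and 0.148 CPM in KO. KO4 lay among the WT mice, KO5 and KO6 below them, and KO6 was at the floor. The fitted log2 fold change was -1.16 ± 0.44 (SE), and 2 of the 6 fits on 5 mice dropped the gene for too few reads. Btc, the betacellulin gene at the far end of the same chromosomal cluster, measured 5.43, 4.36 and 6.02 CPM in WT and 5.08, 4.34 and 4.20 CPM in KO. Its groups overlapped, with a log2 fold change of -0.22 ± 0.16 (SE).

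Tgfa, which encodes transforming growth factor alpha, measured 38.2, 41.7 and 39.8 CPM in WT and 34.1, 30.0 and 31.4 CPM in KO. The groups did not overlap, the mice within each lay close together, and the KO mean was 79.7% of the WT mean. The log2 fold change was -0.33 ± 0.069 (SE). Hbegf, the gene of heparin-binding EGF-like growth factor on chromosome 18, measured 42.9, 43.4 and 42.4 CPM in WT against 50.6, 39.5 and 37.9 CPM in KO. KO4 lay above all WT mice and the other KO mice below them, so that the means were almost equal (log2 fold change -0.010 ± 0.11, SE), and the sign turned when KO5 (0.042) or KO6 (0.066) was left out.

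Egf, the founding member of the family, measured 1.13, 1.05 and 1.26 CPM in WT and 1.08, 1.45 and 2.17 CPM in KO. It was the only one of the 10 genes with a positive log2 fold change, 0.43 ± 0.28 (SE), and the groups overlapped through KO4. Without KO6, the highest mouse, the value was 0.16. Nrg1, the neuregulin 1 gene, measured 5.15, 5.32 and 4.92 CPM in WT and 4.74, 4.34 and 4.79 CPM in KO. All KO values of Nrg1 lay below the WT values, by a small margin (log2 fold change -0.15 ± 0.12, SE).

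Among the receptors, Egfr measured 33.3, 41.8 and 33.8 CPM in WT and 27.0, 27.0 and 26.8 CPM in KO. The KO mice were nearly identical and all below the WT mice, of which WT5 was the highest. The KO mean was 74.1% of the WT mean and the log2 fold change -0.43 ± 0.095 (SE), or -0.32 without WT5. Erbb3, the neuregulin receptor with little kinase activity of its own, measured 86.0, 84.1 and 71.5 CPM in WT and 70.3, 65.5 and 71.4 CPM in KO. The groups of Erbb3 were separate only by the small gap between WT6 and KO6, with a log2 fold change of -0.22 ± 0.079 (SE). Erbb2, the shared partner receptor and the member nearest to the deletion, measured 49.5, 55.7 and 49.8 CPM in WT and 52.8, 41.8 and 48.3 CPM in KO. Its groups overlapped, with a log2 fold change of -0.12 ± 0.095 (SE).

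In the fit over all genes (edgeR's quasi-likelihood test, Benjamini-Hochberg adjustment over 17037 genes), 3 of the 10 genes passed an adjusted p of 0.05, namely Areg, Tgfa and Egfr, all lower in KO. Of all genes tested, 6.39% passed in either direction, 3.72% as higher and 2.67% as lower in KO. Areg alone of the 10 also had an absolute log2 fold change of at least 1.5, which 0.64% of all genes combined with the adjusted p. Ereg, at -1.16, was the next in size. For 5 of the 10 genes all KO values lay below all WT values, which held for 15.6% of all genes, and 32.6% of all genes had groups that did not overlap in one direction or the other. As the genes were picked on this very contrast, nothing is read from these counts. Leaving out WT4, WT5, WT6 or KO6 left none of the 10 past the adjusted p, leaving out KO4 left Areg and Tgfa, and leaving out KO5 left Areg alone. In the fits without WT4, WT5, WT6 or KO6, 3 to 4 of the 10 had an unadjusted p under 0.05, as did 3168 to 3729 of all genes. Nothing is read from those counts either. DESeq2 on all 6 mice gave the same 3 genes, but it used the same 6 libraries and is not independent of the first test.

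Levels were set against each other per length, as CPM per kilobase of exon. On this scale the WT order ran from Erbb3 (mean 13.4) through Erbb2 (9.92), Hbegf (8.88), Tgfa (6.15), Areg (6.10), Egfr (3.21), Btc (1.17), Nrg1 (0.496) and Ereg (0.128) to Egf (0.102). Neighbours in this order had separate ranges over the WT mice except Tgfa with Areg and Ereg with Egf. The WT range of Areg was wide, 4.51 to 8.89, so that it lay below Tgfa in WT4 and WT5 and above it in WT6. In KO the mean level of Areg was 1.92 (2.25, 1.502 and 1.99), below that of Egfr at 2.38, with separate ranges. Ereg and Egf, with overlapping ranges, stood in the other order in KO. By the longest transcript in place of the exon union, Egf ranked above Ereg in both genotypes.

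**Figure D2:**
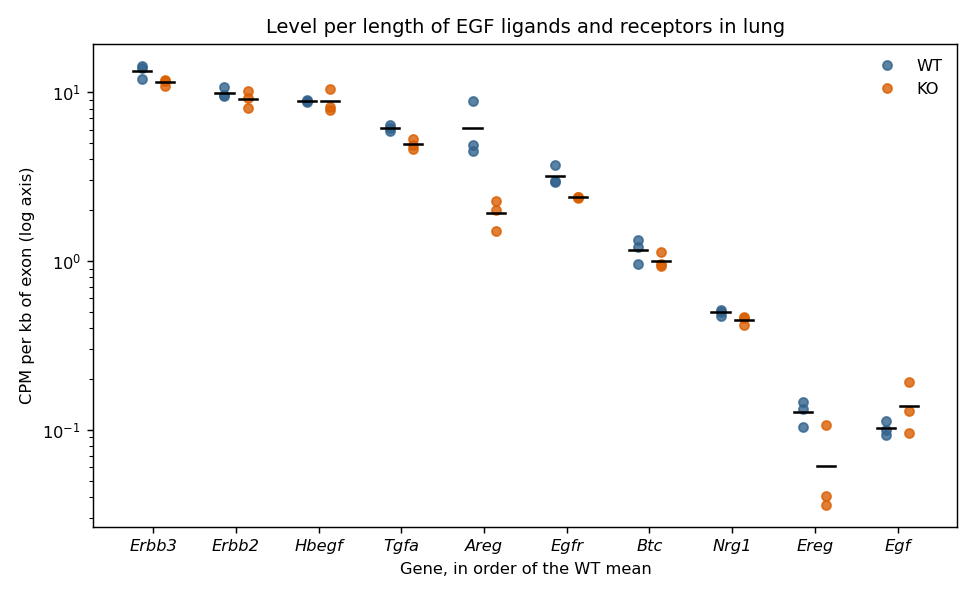
Level per length (CPM per kb of exon, log axis) of the 10 genes, ordered by their WT mean. Points are single WT (blue) and KO (orange) mice and black lines are means. Areg spans 4.51 to 8.89 in WT and 1.502 to 2.25 in KO, which places it below Egfr in KO only.

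The make-up of the ligand pool followed from these levels. Of the summed level per length of the 7 ligands, Areg held 21.2%, 22.3% and 34.4% in WT and 11.4%, 9.48% and 12.2% in KO. Hbegf held 41.9%, 40.9% and 34.0% in WT and 53.0%, 51.6% and 48.1% in KO, and had the highest ligand level in every lung but WT6, where Areg slightly exceeded it. By the longest transcript Hbegf was the highest in WT6 too, at 14.7 against 8.89 for Areg. The summed level itself was 21.2, 21.98 and 25.9 in WT and 19.8, 15.8 and 16.3 in KO. The ratio of Egfr to Erbb2 per length was 0.309, 0.345 and 0.312 in WT and 0.235, 0.297 and 0.255 in KO. Shares of one sum are tied to each other, so the higher share of Hbegf in KO is not a higher level of Hbegf.

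The other genes of the family gave little signal. Nrg3 had no count in any library, which allows at most the floor of 3 counts per library, and Epgn, the epigen gene of the same cluster, had 3, 5 and 5 counts in WT and 2, 0 and 2 counts in KO, too few to be tested. Of the 3 that could be tested, none passed (edgeR's quasi-likelihood test, 0 with an unadjusted p under 0.05 and 0 by DESeq2). Their log2 fold changes were -0.093 for Nrg2, 0.075 for Nrg4 and 0.093 for the receptor gene Erbb4, with adjusted p of 0.784, 0.833 and 0.919 by edgeR's quasi-likelihood test.

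In the 500 kb on either side of Areg, 11 further genes were tested, Ereg and Btc among them, and 0 passed by edgeR's quasi-likelihood test (4 with an unadjusted p under 0.05, which 25.5% of all genes tested had, and 1 by DESeq2, Ppbp). Ppbp and Pf4, which encode platelet chemokines, had log2 fold changes of -0.52 and -0.31 (adjusted p = 0.0618 and 0.194, edgeR's quasi-likelihood test). Of the neutrophil chemokine genes, Cxcl2 measured 0.523, 0.575 and 2.33 CPM in WT and 1.22, 0.462 and 0.691 CPM in KO, and Cxcl1 and Cxcl3 had log2 fold changes of -0.088 and 0.66. Cxcl2 and Cxcl1, like Areg, were highest in WT6. Cxcl15 (-0.11), Gm43085 (0.046), Mthfd2l (-0.15) and Parm1 (-0.29), on log2 scale, completed the interval.

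**Figure D3:**
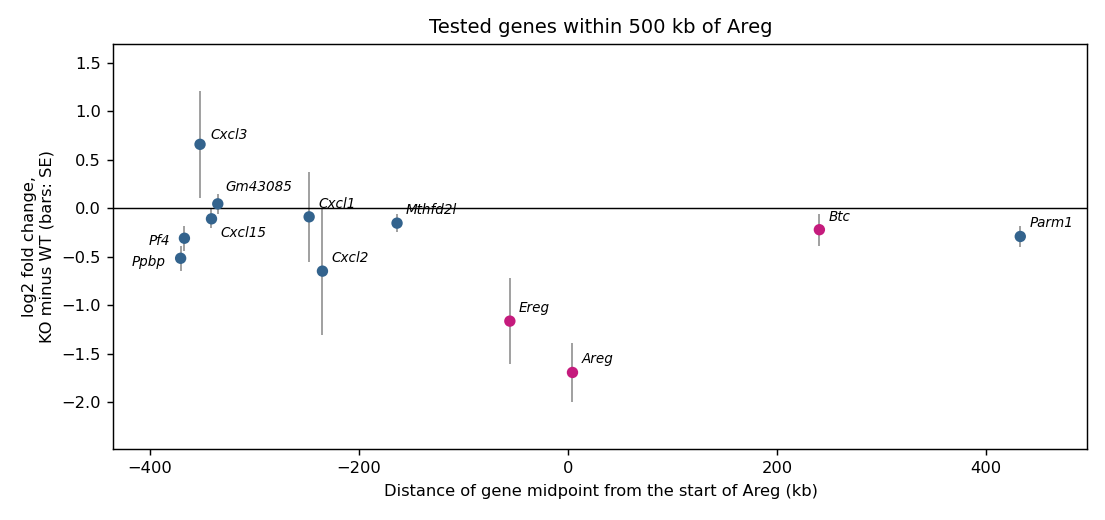
Fitted log2 fold change (KO minus WT, y axis) of the tested genes within 500 kb of Areg, against the distance of each gene's midpoint from the start of Areg (kb, x axis). Points are fitted values, bars are standard errors, and EGF ligands are in magenta. Areg (-1.69) and Ereg (-1.16) are the lowest points, and Btc lies at -0.22.

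The pathway around the receptors was described with 6 lists of 98 genes, of which 95 were tested. These lists were drawn up with earlier results of these data known. Their counts, and the shares of all genes beside them, are therefore a description, and nothing is read from them. In all, 7 of the 95 passed, 1 higher and 6 lower in KO, a share of 7.37% beside the 6.39% of all genes, and the median log2 fold change was -0.068 against 0.0030 over all genes tested. The 12 genes of ligand release, the proteases and their helpers, held none that passed by edgeR's quasi-likelihood test, 6 with an unadjusted p under 0.05 (25.5% of all genes) and 2 by DESeq2, with a median of 0.079. The lowest p in this list belonged to Adam19, a membrane metalloprotease (log2 fold change 0.29 ± 0.068, SE, adjusted p = 0.0537 by edgeR's quasi-likelihood test), which passed with no filter on low counts and with at least 10 counts in every library.

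Of 18 genes that restrain the receptors or take them from the surface, 1 fell and 1 rose, with a median of 0.067. Errfi1, which encodes the inhibitor MIG6 that binds the EGFR kinase, measured 178, 182 and 182 CPM in WT and 144, 136 and 141 CPM in KO. All KO values lay below all WT values, with a log2 fold change of -0.37 ± 0.047 (SE, adjusted p = 0.0145, edgeR's quasi-likelihood test). Sh3kbp1, the gene of CIN85, an adaptor of CBL in receptor uptake, rose by 0.67 ± 0.15 on the log2 scale (SE, adjusted p = 0.0449, edgeR's quasi-likelihood test), with 36.1, 38.0 and 32.0 CPM in WT and 45.3, 68.3 and 54.4 CPM in KO. KO5, the highest for Sh3kbp1, was also the highest for B cell genes, whose part in it was not tested. Errfi1 no longer passed without WT5, WT6 or KO6, nor Sh3kbp1 without WT4, WT5, WT6 or KO6.

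Of 30 genes that relay the signal, 3 fell, with a median over the list of -0.057. Hras, a RAS GTPase gene, had a log2 fold change of -0.30, Nck1, an adaptor, of -0.23, and Pik3ca, the catalytic subunit of PI3 kinase, of -0.22, with adjusted p of 0.0477, 0.0454 and 0.0440 by edgeR's quasi-likelihood test. All 3 are small changes just inside the threshold, and none of the 3 passed without WT4, WT5, WT6 or KO6. Without KO4 only Nck1 of the 3 passed and without KO5 only Pik3ca, so that Hras passed in none of the 6 fits on 5 mice. Pik3ca was also lost with no filter on low counts.

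Of 16 genes of ERK feedback and output, 15 were tested and 1 fell, Phlda1, a gene switched on by growth factors. It measured 65.2, 66.0 and 70.2 CPM in WT and 41.4, 41.4 and 41.9 CPM in KO. Both groups were tight and far apart, with a log2 fold change of -0.69 ± 0.050 (SE, adjusted p = 0.00466, edgeR's quasi-likelihood test). The median of the list was -0.20, with 13 of 15 log2 fold changes below 0 (49.4% of all genes). In 7 of the 15 all KO values lay below all WT values (15.6% of all genes) and in 0 above (17.0% of all genes).

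Of 17 immediate early genes, whose transcription follows receptor activation and many other stimuli within minutes, 1 fell, the transcription factor gene Klf4. It measured 249, 252 and 250.01 CPM in WT and 140, 137 and 161 CPM in KO, with no overlap and a log2 fold change of -0.78 ± 0.071 (SE, adjusted p = 0.00665, edgeR's quasi-likelihood test). Klf4 and Phlda1 kept an adjusted p of at most 0.05 in each fit on 5 mice except the one without WT5, in which a single gene of the whole table passed. The median of the list was -0.46, and 16 of 17 log2 fold changes were below 0. In 3 of the 17 all KO values lay below all WT values (15.6% of all genes) and in 1 above (17.0%). In the same way 4 of 12 ligand release genes lay below and 2 above. For the receptor inhibitors it was 3 of 18 below and 5 above, and for signal relay 7 of 30 below and 2 above.

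**Figure D4:**
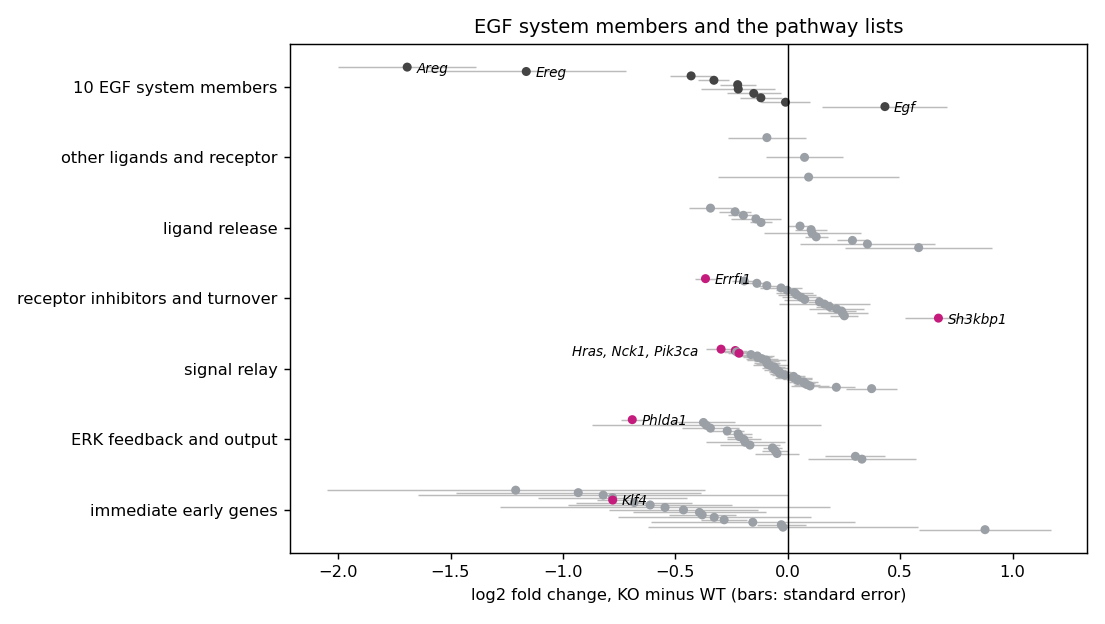
Fitted log2 fold change (KO minus WT, x axis) of the 10 EGF system genes (dark grey, no test shown) and the tested genes of the 6 pathway lists (rows), with bars for the standard error. Magenta points passed an adjusted p of 0.05 (edgeR's quasi-likelihood test): Sh3kbp1 to the right of 0, and Errfi1, Hras, Nck1, Pik3ca, Phlda1 and Klf4 to the left.

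The immediate early genes also separated the WT mice from one another. In 13 of the 17 genes WT6 was the highest of the 6 mice, and the summed level of the list was 1451, 1584 and 2886 CPM in WT and 1644, 1192 and 1434 CPM in KO. Fos measured 17.95, 31.1 and 162 CPM in WT and 46.7, 12.4 and 34.4 CPM in KO, so that WT4 and WT5 lay within the range of the KO mice. Areg was highest in the same mouse, WT6, and lowest in KO5, where Fos was lowest too. In WT4 and WT5 Fos lay below KO4, and Areg lay above all KO mice. Atf3, another of the 17, measured 9.34, 10.5 and 18.3 CPM in WT and 8.99, 7.11 and 7.85 CPM in KO. It was 1 of the 3 genes of the list in which, as for Areg, all KO values lay below all WT values. The part of the immediate early genes in the difference in Areg was not tested.

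**Figure D5:**
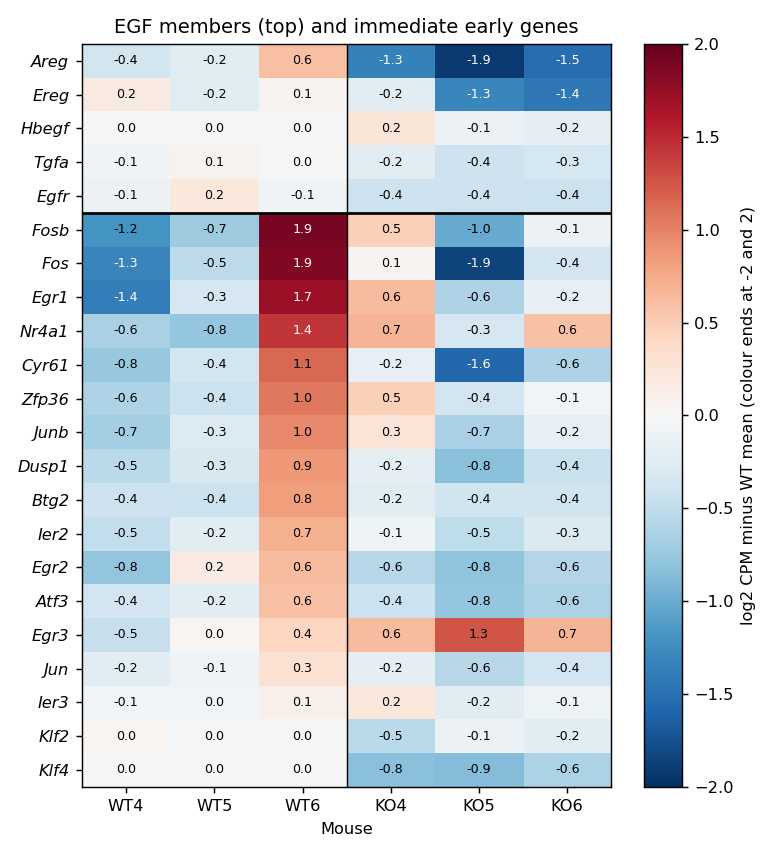
Log2 CPM minus the WT mean (colour and printed value) in each of the 6 mice (columns), for Areg, Ereg, Hbegf, Tgfa and Egfr above the line and 17 immediate early genes below it. WT6 is the highest mouse in 13 of the 17, while Areg is below the WT mean in all KO mice.

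Across the 15384 tested genes with a mean of at least 1 CPM, the 5 whose log2 CPM followed Areg most closely over the 6 mice were Kcnk1 (Pearson r = 0.997), Glt8d2 (0.997), Snx3 (0.996), Fdx1 (0.996) and Nudc (0.995). Kcnk1, a potassium channel gene, measured 18.04, 17.9 and 22.5 CPM in WT and 12.8, 10.97 and 12.3 CPM in KO. These 6 points form 2 genotype groups, so the coefficient includes the difference between them. For deviations from the genotype means the 5 closest were Tmem29 (0.999), Nme7 (0.998), Tspo (0.998), Snx3 (0.996) and Fosb (0.995). Among the listed genes Fosb was followed by Dusp1 (0.994) and Fos (0.992), whereas the value was 0.16 for Klf4 and 0.41 for Tgfa. For Phlda1 it was 0.88 and for Egfr -0.30. Areg, Fosb, Dusp1 and Fos all had their highest value in WT6, which weighs heavily in these coefficients. With 6 libraries and so many genes compared, these values are a description.

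Whole lung was sequenced, so fewer cells of a type and less RNA per cell cannot be told apart in any value given here. The marker lists, too, were drawn up with earlier results of these data known, so their counts are a description. For this paragraph and the next, the shares of all genes tested by edgeR's quasi-likelihood test serve as background. They were 3.72% passing as higher in KO, 2.67% passing as lower, 25.5% with an unadjusted p under 0.05 and 49.4% with a log2 fold change below 0. Of the immune cell types known to make Areg, mast cells had a summed marker level of 204 to 218 CPM in WT and 200 to 214 CPM in KO, with 0 of 6 tested markers passing (edgeR's quasi-likelihood test, 2 with an unadjusted p under 0.05 and 0 by DESeq2). Nearly all of that sum was Kit, at 194 to 214 CPM, and without Kit it was 2.17 to 5.89 CPM in WT and 3.76 to 8.62 CPM in KO. The log2 fold change was above 0 for 5 of the 6, with a median of 0.50, and the KO values of Cma1 (1.08) and Ms4a2 (0.95) lay above all WT values. Markers of innate lymphoid and regulatory T cells were 59.6 to 63.3 CPM in WT and 77.6 to 96.6 CPM in KO, with all 8 log2 fold changes above 0 and 0 of 8 passing (6 with an unadjusted p under 0.05, 3 by DESeq2). The 3 basophil markers summed to at most 1.58 CPM and were not tested. The sums of the lymphoid list lay higher in KO, without overlap. Single markers differed: Gata3 (log2 fold change 0.099), Il1rl1 (0.40) and Icos (0.55) had overlapping groups. The other 5 lay above all WT values in KO, among them Foxp3 (1.27) and Ctla4 (1.89). Il7r, the most abundant of the list, was highest in KO5, at 39.0 CPM. The sum therefore does not separate innate lymphoid from regulatory T cells.

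Among the other blood cell lists, neutrophil markers summed to 56.4 to 94.7 CPM in WT and 149 to 168 CPM in KO, with 3 of 6 tested passing as higher (3.72% of all genes), and monocyte markers to 1698 to 1735 CPM and 1740 to 2065 CPM, with 6 of 8 passing as higher. Most of the monocyte sum was Ace, at 1354 to 1640 CPM, with a log2 fold change of 0.014. The median log2 fold change of the monocyte list was 0.91. B cell markers summed to 128 to 137 CPM in WT and 234 to 1012 CPM in KO, highest in KO5, with 0 of 8 passing by edgeR's quasi-likelihood test (8 with an unadjusted p under 0.05, 6 by DESeq2). Among epithelial and stromal lists, airway secretory markers summed to 28708 to 37577 CPM in WT and 21851 to 30323 CPM in KO and type 2 alveolar markers to 24787 to 27872 CPM and 20766 to 26121 CPM, with overlap. In each of these lists 7 of 8 log2 fold changes were below 0 and 0 passed (1 with an unadjusted p under 0.05, 1 by DESeq2). Most of the secretory sum was Scgb1a1, at 19547 to 33010 CPM. Some other secretory markers differed widely between mice of one genotype. Bpifa1 measured 59.1, 593 and 128 CPM in WT and 235, 1.22 and 277 CPM in KO. Type 1 alveolar markers (6223 to 6273 CPM in WT, 5352 to 6130 CPM in KO) and fibroblast markers (2200 to 2459 CPM in WT, 1880 to 2079 CPM in KO) did not overlap, with 1 of 8 and 0 of 8 passing (fibroblasts had 4 with an unadjusted p under 0.05 and 2 by DESeq2). Log2 fold changes were below 0 for 6 of 8 type 1 markers and 8 of 8 fibroblast markers. T cell markers summed to 49.4 to 53.6 CPM in WT and 56.7 to 144 CPM in KO, with 8 of 8 log2 fold changes above 0 and 0 passing (7 with an unadjusted p under 0.05, 5 by DESeq2). Smooth muscle markers summed to 571 to 862 CPM and 446 to 585 CPM, with 6 of 6 below 0 and 0 passing (5 with an unadjusted p under 0.05, 5 by DESeq2). Ciliated cell markers summed to 401 to 510 CPM and 297 to 437 CPM, with 8 of 8 below 0 and 0 passing (1 with an unadjusted p under 0.05, 1 by DESeq2). For alveolar macrophages (538 to 817 CPM in WT, 638 to 837 CPM in KO), endothelium (3892 to 4291 CPM, 3689 to 4439 CPM), mesothelium (345 to 464 CPM, 328 to 367 CPM), basal cells (1.33 to 9.63 CPM, 2.12 to 3.75 CPM), cardiac muscle (396 to 1043 CPM, 140 to 1199 CPM) and nerve (489 to 534 CPM, 524 to 652 CPM) the sums overlapped. In these 6 lists 2 markers passed by edgeR's quasi-likelihood test, named after their values were seen: the macrophage receptor gene Marco was higher in KO (log2 fold change 1.26, adjusted p = 0.00665) and the tight junction gene Cldn5 lower (-0.31, adjusted p = 0.0362). No marker of any list was at 0 in all libraries. The part of these cell types in the lower Areg, Tgfa and Egfr was not tested.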

How the data were processed

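Per the labels and the study's methods, RNA from 6 lungs (3 WT, 3 KO) was made into stranded TruSeq mRNA libraries. The authors trimmed reads (Trimmomatic 0.36), aligned them to GRCm38 (STAR 2.5.3a; Picard 2.9.0 is also listed) and deposited raw counts per Ensembl gene (HTSeq 0.6.0). The annotation release and the strand setting of the counting are not given in the sources used here. From these counts, edgeR 4.0.16 in R 4.3.3 (TMM scaling, filterByExpr with a minimum count of 10, quasi-likelihood test, Benjamini-Hochberg over 17037 genes) compared KO with WT. CPM used TMM-scaled library sizes, and levels per length the union of exons in GENCODE M21. The standard error is the absolute log2 fold change over the square root of F. Each library came from 1 mouse.

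The members, pathway lists and marker lists were chosen with earlier results of these data known. Named genes are the members, Zpbp2, the remaining family, the genes that passed in each pathway list (the lowest p where none did), tested genes within 500 kb of Areg, the 5 genes most like Areg by each of 2 measures, and listed genes given for the pattern over mice (Fos, Dusp1, Atf3, Xist with Y genes and single cell type markers were named after their values were seen). Alternatives were DESeq2 1.42.0, its size factors, other filters, a replicate block, leaving out each mouse and the longest transcript as length.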

Additional observations from a re-analysis of the deposited data

How the results depend on the processing

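Most members kept their direction under the alternatives tried: of 107 refitted log2 fold changes of the 10 genes, 87 kept direction and side of the threshold, 18 kept direction but no longer passed, and 2 turned sign, both for Hbegf (0.042 without KO5 and 0.066 without KO6). All 18 that no longer passed belonged to Areg, Tgfa and Egfr, the only members that passed in the main fit. Most of the 87 belonged to genes that had not passed and so had no call to lose. Counts of calls depended on the mice. Over all genes 1089 passed, 1847 by DESeq2's Wald test and between 1 and 1278 when 1 mouse was left out (254 without WT4, 1 without WT5, 63 without WT6, 117 without KO6), of the 10 members 3 passed and between 0 and 2 with a mouse left out, and of the pathway genes 7 passed, 16 by DESeq2 and between 0 and 9 with a mouse left out (3 without WT4, 0 without WT5, 2 without WT6, 2 without KO6). Size factors in place of TMM and other filters on low counts kept all these counts within 1.5 times, although Adam19 passed with either other filter setting and Pik3ca did not pass with no filter. By the longest transcript instead of the exon union, WT levels per kb moved to 14.9 for Hbegf, 8.82 for Tgfa, 0.241 for Egf and 0.947 for Nrg1, which puts Hbegf first and Egf above Ereg, while Areg stayed at 6.10. Ereg rests on 3 to 17 counts a library, and a filter of 10 counts in every library removed it.

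The labels do not say whether the replicate numbers pair the mice. Deviations of same-numbered mice from their group means correlated at -0.032, -0.15 and -0.021. Those of differently numbered mice correlated at -0.23 to 0.26. Such values show no sign of pairing but cannot settle whether same-numbered mice were handled together. With the number as a replicate block, 66 genes passed in all, 0 of the members (5 with an unadjusted p under 0.05, beside 3791 of all genes) and 2 of the pathway genes, Klf4 and Phlda1.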
